A study of Aspergillus nidulans with 24 samples.

Results

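Expression is described for 4 genes of the filamentous fungus Aspergillus nidulans that encode pectin-degrading enzymes: pmeA (AN3390), pelA (AN0741) and the polygalacturonase genes AN8327 and AN4372. They are 4 of the 10631 genes measured and were picked by name, as rows of the expression table over all 24 libraries. The choice was made with their values in these libraries known, so their levels and differences are given as a description, with no test. The names table used here gives a symbol to 1 of the 4, pmeA, and the other enzyme names come with the choice of the genes.

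Pectin is a plant cell wall polysaccharide whose main chain is made of galacturonic acid, part of it methyl-esterified. Pectin methylesterases such as the product of pmeA remove the methyl groups, which opens the chain to polygalacturonases, which hydrolyse it, and to pectate lyases such as the product of pelA, which cut it by elimination. In aspergilli the genes of these enzymes are known to respond to galacturonic acid and to be held down by glucose, and neither pectin nor galacturonic acid is named in the media described for these cultures.

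The study asked how the fungus responds in its transcriptome to making a foreign protein. Each of 3 recombinant strains made a heterologous enzyme: AbfA an alpha-arabinofuranosidase of family GH51, BglC a beta-glucosidase of family GH3, and 1542 a thermophilic mannanase of family GH5. The reference was the parental strain A773 (pyrG89;wA3;pyroA4), called wild type in the labels although it carries these 3 mutations. The alleles of the recombinant strains at these loci, the promoter of the introduced genes and the number of transformants behind a strain were not given in the sources used here. Mycelium was grown in minimal medium with 1% glucose. It was then held for 2 h or 8 h at 37 °C in minimal medium with 2% maltose and 250 mM HEPES. The maltose medium activates the promoter. The pH was given as 6.5 for every library. Pyridoxine, uracil and uridine were added as needed, and the strain that received each is not named. Every strain was sampled at both times in biological triplicate, which gave 8 groups of 3 libraries.

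Whole reads recovered from the FPKM values (fragments per kilobase of gene, scaled to the size of the library) came to 7140121 to 32309718 per library. A single read in 1 kb was worth 0.03095 to 0.1401 FPKM. The groups differed in many genes: between 17.8% and 48.3% of the 9201 genes tested passed the limma test in the 10 comparisons reported, and in 34% to 57.4% the 3 libraries of one group lay wholly above or below the 3 of the other. Differences are on the log2(FPKM + 1) scale with the SE of a limma fit over all 24 libraries, in which each gene has 1 spread for all groups. That scale understates differences of genes near or below 1 FPKM. In bulk RNA, fewer cells that express a gene and less of its RNA per cell cannot be told apart.

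The pectin methylesterase gene pmeA was higher at 8 h than at 2 h in every strain, and its highest level was in A773 at 8 h. At 8 h it had 15, 18.2 and 10.4 FPKM in AbfA, 17.9, 20.0 and 24.1 FPKM in BglC, 27.6, 18.5 and 16.6 FPKM in 1542, and 32.8, 34.8 and 52.4 FPKM in A773. At 2 h it had 2.94, 1.53 and 1.3 FPKM in AbfA, 3.4, 2.66 and 6.14 FPKM in BglC, 5.18, 4.59 and 5.8 FPKM in 1542, and 3.8, 2.17 and 1.3 FPKM in A773. In each strain all 3 libraries at 8 h were above all 3 at 2 h, and at 8 h all 9 libraries of the recombinant strains were below the lowest A773 library.

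In A773 the mean of pmeA was 40 ± 10.8 FPKM at 8 h and 2.42 ± 1.27 FPKM at 2 h (SD, n = 3), a ratio of 16.5 and a log2 difference of 3.62 ± 0.29 (SE). The 8 h mean was 7.55 times the 2 h mean in AbfA (2.42 ± 0.29), 5.08 times in BglC (2.14 ± 0.29) and 4.03 times in 1542 (1.8 ± 0.29). These ratios move pmeA through the ranks of the transcriptome. Its mean exceeded that of 65.0% of all genes in A773 at 8 h, against 25% at 2 h, and that of 43.3% in AbfA at 8 h, against 20.2% at 2 h.

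Against A773 at 8 h, pmeA was at 0.363 of the parental mean in AbfA (−1.40 ± 0.29), 0.516 in BglC (−0.90 ± 0.29) and 0.522 in 1542 (−0.91 ± 0.29). At 2 h the picture differed between strains. The mannanase strain 1542 was above A773 in all 3 libraries (0.92 ± 0.29), while the libraries of AbfA (−0.20 ± 0.29) and BglC (0.57 ± 0.29) overlapped those of A773. The AbfA value at 2 h has no firm sign, since without A773 replicate 1 it was 0.07, and the other 5 libraries left out gave −0.05 to −0.46. The BglC value was 0.32 without A773 replicate 3 and 0.30 without BglC replicate 3. In the order of the 8 means, A773 at 8 h stood apart at the top, the 3 recombinant strains at 8 h overlapped their neighbours in the order of 1542, BglC and AbfA, and the 4 groups at 2 h followed below a gap, each overlapping the next.

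**Figure D1:**
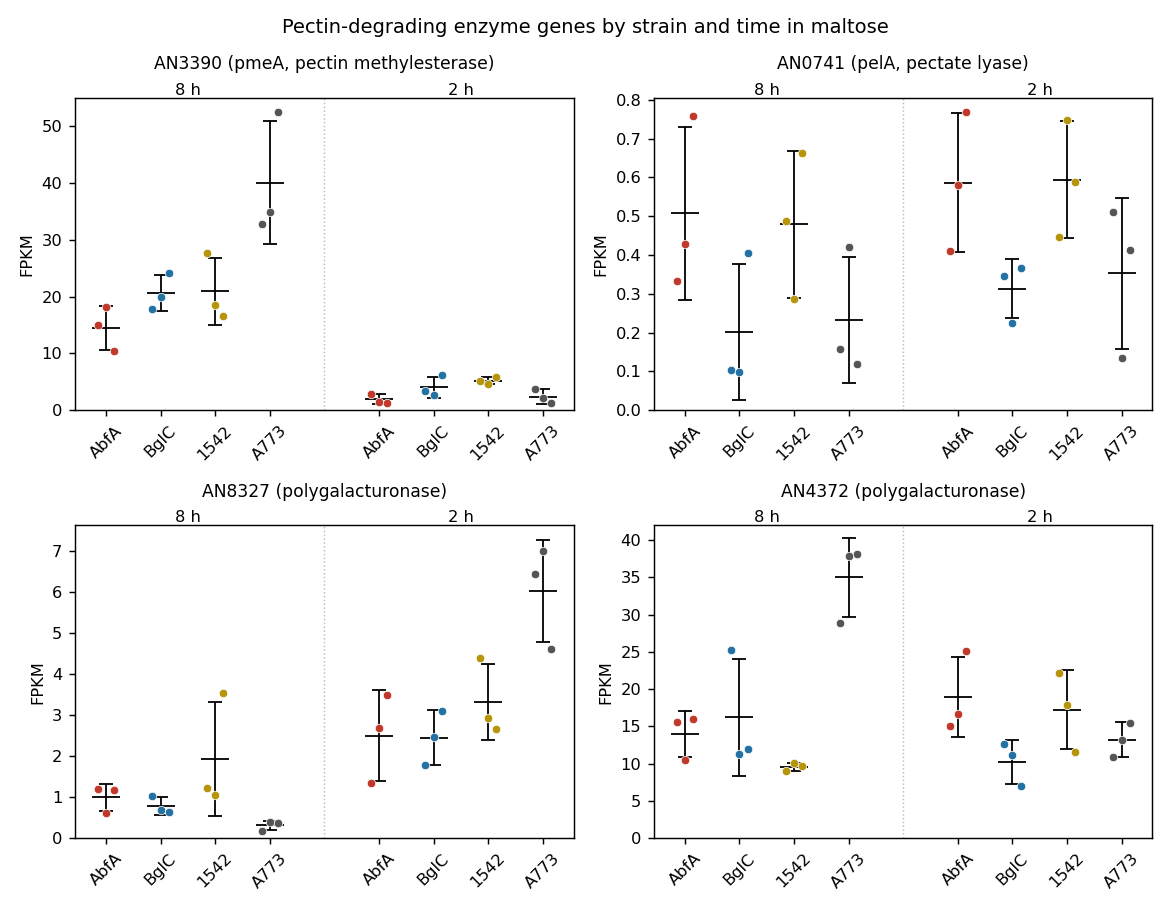
FPKM of the 4 genes (linear axes from 0) in AbfA, BglC, 1542 and A773 at 8 h (left) and at 2 h (right); points are single libraries, from left to right replicates 1 to 3, and bars give the mean ± SD (n = 3). For pmeA and AN4372 the 3 A773 libraries at 8 h lie above every other library, for AN8327 the A773 libraries are the lowest group at 8 h and the highest at 2 h, and no library exceeds 0.768 FPKM for pelA.

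The polygalacturonase gene AN8327 ran the other way with time and had both its extremes in the parental strain. At 8 h it had 1.2, 0.613 and 1.17 FPKM in AbfA, 1.03, 0.677 and 0.644 FPKM in BglC, 1.21, 1.04 and 3.53 FPKM in 1542, and 0.182, 0.396 and 0.359 FPKM in A773. At 2 h it had 1.33, 2.68 and 3.5 FPKM in AbfA, 1.78, 2.47 and 3.1 FPKM in BglC, 4.38, 2.93 and 2.66 FPKM in 1542, and 6.44, 7.01 and 4.61 FPKM in A773. The A773 libraries at 8 h were the lowest 3 of all 24, and those at 2 h were the highest 3, and in every strain but 1542 the libraries at 8 h lay below those at 2 h.

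In A773 the mean of AN8327 was 0.312 ± 0.114 FPKM at 8 h and 6.02 ± 1.25 FPKM at 2 h, a ratio of 0.0519. The 8 h value rests on 4, 11 and 7 reads in the 3 libraries, and the 2 h value on 103, 121 and 91. Pooled over the 3 libraries, counting error alone left 0.199 to 0.481 FPKM at 8 h (exact Poisson 95% interval) and 5.3 to 6.64 FPKM at 2 h. The log2 difference was −2.41 ± 0.28 on the scale with 1 added, −3.91 with 0.1 added and −4.33 by voom on the recovered reads. In the recombinant strains the 8 h mean was 0.398 of the 2 h mean in AbfA (−0.77 ± 0.28), 0.32 in BglC (−0.94 ± 0.28) and 0.581 in 1542 (−0.64 ± 0.28).

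Compared with A773, AN8327 was higher in all 3 recombinant strains at 8 h and lower in all 3 at 2 h, without overlap of libraries in any of the 6 comparisons. At 8 h it was at 3.19 times the A773 mean in AbfA (0.59 ± 0.28), 2.51 times in BglC (0.44 ± 0.28) and 6.18 times in 1542 (1.06 ± 0.28). By voom on recovered reads the differences at 8 h were 1.76 in AbfA, 1.44 in BglC and 2.45 in 1542. At 2 h it was at 0.416 of the A773 mean in AbfA (−1.04 ± 0.28), 0.407 in BglC (−1.03 ± 0.28) and 0.552 in 1542 (−0.70 ± 0.28). The 3 strains were set against the same A773 libraries, so these are not independent observations. One library of 1542, replicate 3 at 8 h, was at 3.53 FPKM beside 1.21 and 1.04, and without it the differences of 1542 were 0.70 from A773 at 8 h and −1 between 8 h and 2 h.

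AN4372, the other polygalacturonase gene, had its highest level in A773 at 8 h, and at 2 h it was the most abundant of the 4 in FPKM in every strain. At 8 h it had 15.6, 10.5 and 16 FPKM in AbfA, 25.2, 11.3 and 12.0 FPKM in BglC, 9.0, 10.1 and 9.63 FPKM in 1542, and 28.9, 37.9 and 38.2 FPKM in A773. At 2 h it had 15.1, 16.6 and 25.1 FPKM in AbfA, 12.6, 11.1 and 6.97 FPKM in BglC, 22.1, 17.8 and 11.6 FPKM in 1542, and 10.9, 13.2 and 15.5 FPKM in A773. The 4 groups at 2 h overlapped their neighbours, and so did the recombinant strains at 8 h, while the 3 A773 libraries at 8 h were above all 21 others.

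The mean of AN4372 in A773 was 35.0 ± 5.31 FPKM at 8 h and 13.2 ± 2.32 FPKM at 2 h, a ratio of 2.64 (1.34 ± 0.28). In 1542 all 3 libraries at 8 h lay below all 3 at 2 h, with means of 9.58 ± 0.558 and 17.2 ± 5.3 FPKM (−0.74 ± 0.28). The libraries of the 2 times overlapped in AbfA (−0.40 ± 0.28) and in BglC (0.56 ± 0.28). These 2 values move with single libraries, to −0.19 in AbfA without replicate 3 at 2 h or −0.21 without replicate 2 at 8 h, and to 0.21 in BglC without replicate 1 at 8 h or 0.33 without replicate 3 at 2 h. Against A773 at 8 h the gene was at 0.401 of the parental mean in AbfA (−1.27 ± 0.28), 0.463 in BglC (−1.15 ± 0.28) and 0.274 in 1542 (−1.76 ± 0.28), each without overlap. At 2 h the libraries of AbfA (0.47 ± 0.28), BglC (−0.37 ± 0.28) and 1542 (0.32 ± 0.28) overlapped those of A773, and single libraries moved these values too, to 0.26 in AbfA without its replicate 3, −0.14 in BglC without its replicate 3, and 0.12 or 0.56 in 1542 without its replicate 1 or 3 and 0.20 without A773 replicate 1.

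**Figure D2:**
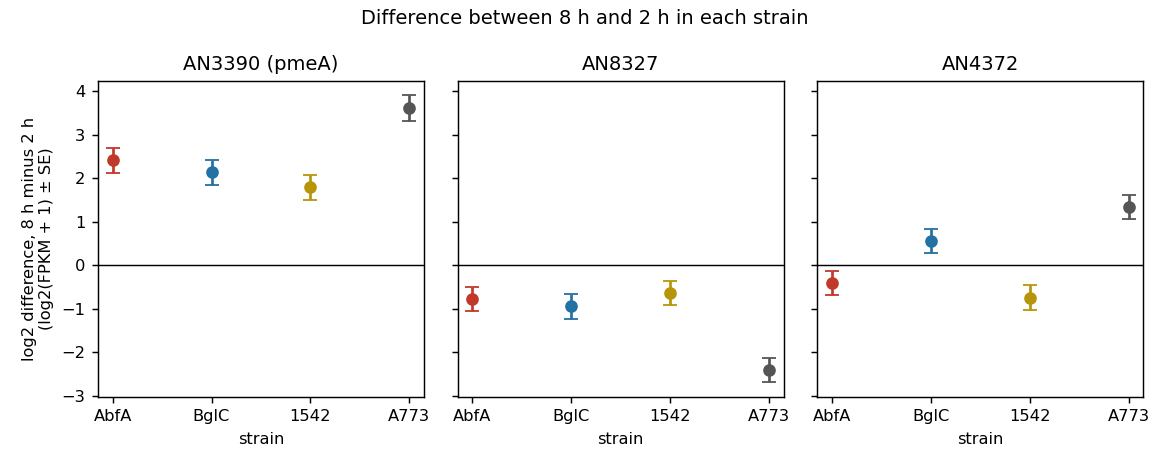
Difference between 8 h and 2 h on the log2(FPKM + 1) scale for pmeA, AN8327 and AN4372 in each strain; points are the estimates of the limma fit over 24 libraries and bars are ± SE. A773 has the difference farthest from 0 for each gene, at 3.62, −2.41 and 1.34, and for AN4372 the estimates of AbfA and 1542 are on the other side of 0.

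The difference between 8 h and 2 h was thus farther from 0 in A773 than in each recombinant strain for these 3 genes. More of all genes tested also passed limma between the times in A773 (48.3%) than in AbfA (19.1%), BglC (32.3%) or 1542 (17.8%). For pmeA the strain's difference minus that of A773 was −1.20 ± 0.41 in AbfA, −1.47 ± 0.41 in BglC and −1.82 ± 0.41 in 1542. For AN8327 it was 1.63 ± 0.39, 1.47 ± 0.39 and 1.77 ± 0.39 in the same order of strains, and for AN4372 −1.74 ± 0.40, −0.78 ± 0.40 and −2.08 ± 0.40. All 9 values share the 6 A773 libraries, and for AN8327 the signs are opposite.

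Because FPKM is scaled per length, the 2 polygalacturonase genes can be set against each other within a library, where the scaling between libraries cancels. The ratio of AN4372 to AN8327 was 13, 17.1 and 13.6 in AbfA at 8 h, 24.5, 16.6 and 18.7 in BglC, 7.41, 9.7 and 2.73 in 1542, and 158, 95.7 and 106 in A773. At 2 h it was 11.4, 6.21 and 7.17 in AbfA, 7.07, 4.48 and 2.25 in BglC, 5.05, 6.08 and 4.34 in 1542, and 1.69, 1.89 and 3.37 in A773. In A773 the ratio had a mean of 120 ± 33.5 at 8 h and 2.32 ± 0.918 at 2 h, without overlap, and the 8 h value carries the counting error of the few AN8327 reads. It did not overlap between the times in AbfA (means 14.6 ± 2.21 at 8 h and 8.25 ± 2.75 at 2 h) or BglC (20.0 ± 4.08 and 4.6 ± 2.42), and overlapped in 1542 (6.61 ± 3.56 and 5.16 ± 0.875).

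**Figure D3:**
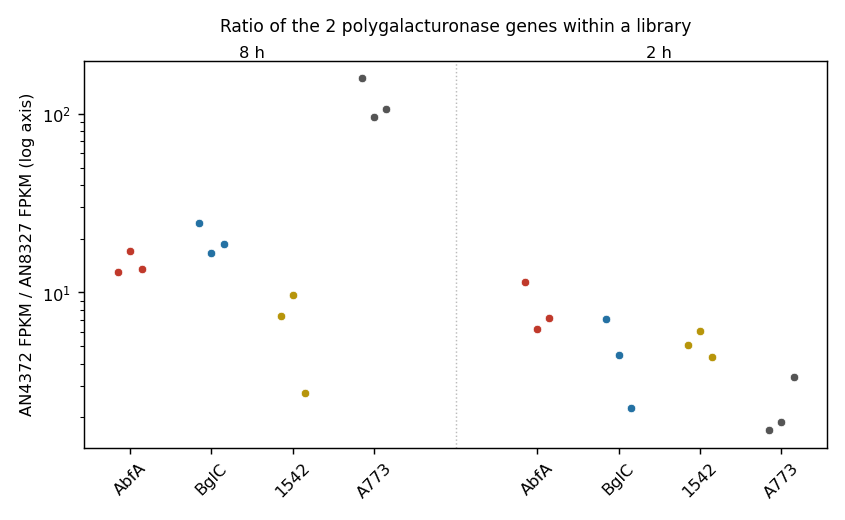
Ratio of AN4372 FPKM to AN8327 FPKM within each library (log axis) by strain at 8 h (left) and at 2 h (right); points are single libraries, from left to right replicates 1 to 3. The A773 libraries lie between 95.7 and 158 at 8 h and between 1.69 and 3.37 at 2 h, while no library of a recombinant strain exceeds 24.5.

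The level of pmeA was below that of AN4372 in all 12 libraries at 2 h and above it in 8 of 12 at 8 h. The ratio of pmeA to AN4372 averaged 1.11 ± 0.558 in AbfA at 8 h, against 0.113 ± 0.0738 at 2 h, and 1.49 ± 0.689 in BglC at 8 h, against 0.464 ± 0.362 at 2 h. It averaged 2.21 ± 0.745 in 1542 at 8 h, against 0.331 ± 0.148 at 2 h, and 1.14 ± 0.227 in A773 at 8 h, against 0.199 ± 0.136 at 2 h. The exceptions at 8 h were 2 libraries of AbfA (0.957 and 0.653), 1 of BglC (0.709) and 1 of A773 (0.919), and in BglC the times overlapped (0.882 in replicate 3 at 2 h). At 8 h the A773 mean lay within the range of means of the other strains.

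The pectate lyase gene pelA was close to the limit of detection in all libraries. It had 2 to 13 reads per library, 157 in all, and 0.0986 to 0.768 FPKM. The means at 8 h were 0.507 ± 0.223 FPKM in AbfA, 0.202 ± 0.175 in BglC, 0.479 ± 0.189 in 1542 and 0.233 ± 0.163 in A773. At 2 h they were 0.586 ± 0.179 FPKM in AbfA, 0.313 ± 0.0763 in BglC, 0.594 ± 0.151 in 1542 and 0.353 ± 0.195 in A773. The libraries overlapped in all 10 comparisons, which does not show that the levels were equal, and pelA was not tested. Its 8 h mean was 2.18 times that of A773 in AbfA, 2.06 times in 1542 and 0.869 in BglC. At 2 h these ratios were 1.66, 1.68 and 0.886, all on few reads. Pooled over 3 libraries, the exact Poisson 95% interval ran from 0.377 to 0.761 FPKM for AbfA at 2 h (34 reads) and from 0.0967 to 0.347 FPKM for BglC at 8 h (11 reads). These intervals cover counting error only. pelA reached 1 FPKM in no library and so did not enter the fit, which took genes with at least 1 FPKM in at least 3 libraries, whereas the other 3 genes did.

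Counted over the 4 genes, libraries without overlap were less frequent than over all genes tested in some comparisons and more frequent in others, and since the genes were chosen with these values known nothing is read from the counts. In A773 between 8 h and 2 h, 2 genes were wholly higher and 1 wholly lower, where 57.4% of all genes tested did not overlap (36.4% higher, 21% lower). At 8 h against A773, each of the recombinant strains had 1 gene wholly higher (AN8327) and 2 wholly lower (pmeA and AN4372), with 49% of all genes not overlapping for AbfA (20.7% higher, 28.3% lower), 43.3% for BglC (12% higher, 31.3% lower) and 38.7% for 1542 (13.3% higher, 25.4% lower). At 2 h against A773, AN8327 was wholly lower in each, and pmeA wholly higher in 1542, with 40.4% for AbfA (21.5% higher, 18.9% lower), 34% for BglC (11.8% higher, 22.2% lower) and 53.3% for 1542 (30.1% higher, 23.2% lower). Between 8 h and 2 h, each recombinant strain had 1 gene wholly higher and 1 wholly lower, with 37.8% of all genes not overlapping in AbfA (23.7% higher, 14.1% lower), 40.3% in BglC (25.3% higher, 15% lower) and 41% in 1542 (20% higher, 21% lower).

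A list of 23 genes, the 4 among them, was entered by identifier from general knowledge as genes thought to encode enzymes of pectin breakdown. Of these 22 were measured and 17 tested, 3 of them being pmeA, AN8327 and AN4372. Apart from pmeA, 3 of the list have a symbol in the names table, pgxB (AN8891, an exopolygalacturonase), rglA (AN7135) and rglB (AN6395), both rhamnogalacturonan lyases, which cut the rhamnose-containing stretches of pectin. The other identifiers are not annotated in the sources used here and are given without a role. Genes of the list outside the 4 that are named below, other than AN2569, were named after their values were seen.

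Outside the 4 genes, no tested gene of the list but AN2569 had a log2(FPKM + 1) difference above 0.83 in size. That scale understates differences of low genes, such as AN10274, whose mean in AbfA at 2 h was 3.31 times that of A773. Untested genes of the list have no such value. Among them AN9314 in 1542 had an 8 h mean of 0.136 of its 2 h mean, on 6 and 35 reads in the 2 groups. The ratio for AN9314 was 0.163 in AbfA, 0.224 in BglC and 0.348 in A773, with libraries that overlapped between the times. Of the 14 others tested, 8 passed the limma test in at least 1 of the 10 comparisons, beside 85.6% of all 9201 genes tested. The 6 without a call included pgxB, and there were 18 calls in all. Both the 8 genes and the 18 calls include AN10274, which passed the filter only through groups in which it was high. AN2569 was higher in AbfA at both times. It had 4.51, 3.87 and 2.34 FPKM in AbfA at 2 h, against 0.752, 0.232 and 0.254 in A773 (1.68 ± 0.28, limma adjusted p = 0.00025), and 3.27, 6.27 and 3.33 FPKM in AbfA at 8 h, against 1.0, 0.975 and 0.668 in A773 (1.45 ± 0.28, limma adjusted p = 0.001). All 3 AbfA libraries were above all 3 of A773 at each time. It also rose in 1542 at 2 h (0.93 ± 0.28, limma adjusted p = 0.013), while BglC had 0.70 ± 0.28 at 2 h (adjusted p = 0.07) and 0.65 ± 0.28 at 8 h (adjusted p = 0.085).

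Between 8 h and 2 h in A773, 4 of the 14 others passed, 2 higher and 2 lower, beside 48.3% of all genes tested (31.4% higher, 16.8% lower). With median-of-ratios scaling or voom, 1 was higher and 3 were lower. The higher were rglB (0.50 ± 0.14, limma adjusted p = 0.0061), with 1.33 FPKM at 8 h and 0.639 at 2 h, and AN6106 (0.50 ± 0.19, adjusted p = 0.033). The lower were rglA (−0.51 ± 0.19, adjusted p = 0.035), with 1.68 FPKM at 8 h and 2.85 at 2 h, and AN2331 (−0.61 ± 0.19, adjusted p = 0.013). The median over the 14 was −0.03, beside 0.133 over all genes. In the recombinant strains, 0 of the 14 passed between the times in AbfA, where 3 had an unadjusted p under 0.05 and voom called 0. Of all genes limma called 19.1% there (10.9% higher, 8.14% lower). In BglC 1 was higher and 1 lower (all genes 32.3%, with 21.7% higher and 10.6% lower), and in 1542 2 were lower (all genes 17.8%, with 8.62% higher and 9.18% lower). Those in BglC were AN2537 (0.58 ± 0.14, adjusted p = 0.0048) and AN2331 (−0.60 ± 0.19, adjusted p = 0.022), and those in 1542 AN10274 (−0.61 ± 0.17, adjusted p = 0.019) and AN9383 (−0.83 ± 0.25, adjusted p = 0.028).

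Against A773, the calls among the 14 others were all upward in the main fit, though some fits with 1 library left out had a lower call. In AbfA they numbered 2 at 2 h, where 31.9% of all genes were called (18.5% higher, 13.5% lower), and 2 at 8 h, where 27.9% were called (11.3% higher, 16.6% lower). In BglC 1 was called at 2 h (all genes 23.2%, with 7.5% higher and 15.7% lower). At 8 h BglC had 0 by limma (all genes 28%, with 7.09% higher and 20.9% lower), 4 at an unadjusted p under 0.05 and 0 by voom. In 1542 there were 4 at 2 h (all genes 38.2%, with 22.1% higher and 16.1% lower) and 1 at 8 h (all genes 18.2%, with 5.42% higher and 12.7% lower). AN10274 was higher in AbfA (0.74 ± 0.17, limma adjusted p = 0.0032) and 1542 (0.75 ± 0.17, adjusted p = 0.0022) at 2 h, on means of 1.4 and 1.37 FPKM, against 0.423 in A773. This gene reached 1 FPKM in 5 libraries, all of AbfA or 1542 at 2 h, so it passed the filter only through the groups in which it was high. Its 3 calls, the difference between the times in 1542 included, are a description and not support. The counts of calls over the 14 others include them, so nothing is read from all calls against A773 being upward. AN2537 was higher in 1542 at 2 h (0.48 ± 0.14, adjusted p = 0.014), in AbfA at 8 h (0.55 ± 0.14, adjusted p = 0.0086) and in 1542 at 8 h (0.64 ± 0.14, adjusted p = 0.0041). rglB was higher at 2 h in BglC (0.41 ± 0.14, adjusted p = 0.042) and 1542 (0.42 ± 0.14, adjusted p = 0.024). The median over the 14 lay between −0.23 (BglC at 2 h) and 0.33 (1542 at 2 h), beside −0.104 and 0.051 over all genes.

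These counts over the 14 others are small and move with single libraries. In 1542 at 2 h there were 4, with 1 without 1542 replicate 3 and 2 without A773 replicate 2. Without 1542 replicate 1 there were 5, of which 1 was lower. BglC at 2 h had 1, which became 0 without A773 replicate 2 or BglC replicate 2 or 3. It became 2, with 1 higher and 1 lower, without A773 replicate 3 or BglC replicate 1. The 0 in BglC at 8 h became 1, a lower call, without A773 replicate 2 or 3. Between the times in A773, 4 became 2 without replicate 1 or 2 at 2 h or replicate 3 at 8 h. The 0 in AbfA became 2 without replicate 1 at 2 h, and 1 without replicate 2 or 3 at 2 h or replicate 2 at 8 h. In BglC 2 became 1 without replicate 3 at 2 h or replicate 2 or 3 at 8 h. In 1542 2 became 0 without replicate 2 at 2 h or replicate 1 or 2 at 8 h, and 1 without replicate 1 or 3 at 2 h.

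**Figure D4:**
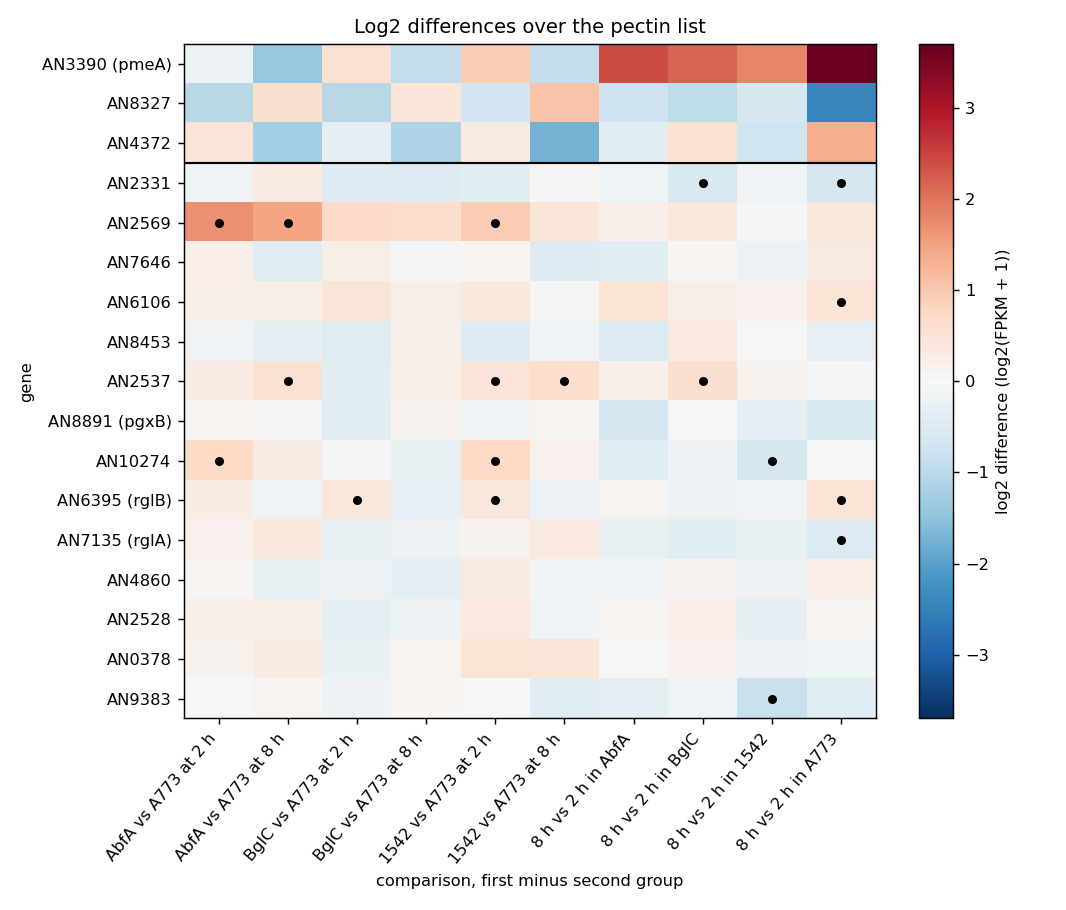
Log2 differences (log2(FPKM + 1), first minus second group) of the 17 tested genes of the pectin list in the 10 comparisons; colour gives the difference, the 3 chosen genes are above the line and carry no test, and a dot marks a limma call (adjusted p under 0.05) among the other 14. The deepest colours below the line are those of AN2569 in AbfA (1.68 at 2 h and 1.45 at 8 h).

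The genes whose profiles over the 24 libraries were most like those of the 4 were found by the root mean square difference of log2(FPKM + 1) after each profile was centred on its own mean. Libraries share their depth and their group across genes, so this likeness is a description. The profile of pmeA was closest to AN8602, AN0362 and AN8436, at differences of 0.384, 0.496 and 0.542, where the median over all genes tested was 1.39. AN8602 averaged 125, 169, 211 and 371 FPKM at 8 h in AbfA, BglC, 1542 and A773, and 31.0, 63.1, 85.1 and 35.0 FPKM at 2 h, so it shares with pmeA the highest mean in A773 at 8 h. AN8327 was closest to AN6168, AN7710 and AN2509 (0.355, 0.368 and 0.398, median 0.873). All 3 had their lowest mean in A773 at 8 h and their highest in A773 at 2 h, as in AN7710 with 712 and 3399 FPKM at 8 h and 2 h. AN8327 itself had 0.312 and 6.02 FPKM there, a larger fold difference. The scale with 1 added shrinks it for AN8327 and hardly for these 3 genes, so the likeness depends on that scale.

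AN4372 was closest to AN3820, AN10597 and AN8312 (0.33, 0.377 and 0.389, median 0.651). AN3820 averaged 128 FPKM in A773 at 8 h, against 46.9 to 69.8 FPKM in the other 7 groups, while AN8312 had at most 1.45 FPKM in any group. For pelA the closest were AN2169, AN4900 and AN3470 (0.14, 0.163 and 0.165, median 0.397). Its own profile spread by 0.208 about its mean, at a few reads per library, and the closest genes were steady ones with means of 65.8 to 178 FPKM. None of these genes has a symbol in the names table.

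The genes next to the 4 on their chromosomes gave no shared pattern between 8 h and 2 h in A773. In that comparison limma called 48.3% of all genes tested (31.4% higher, 16.8% lower), so single calls among the neighbours say little. By the order of genes in the assembly ASM1142v1, the 4 lie on 4 different chromosomes, and 7 of their 8 neighbours were measured. AN4373, beside AN4372, was lower at 8 h (0.157 FPKM, against 2.57 at 2 h, −1.62 ± 0.26, limma adjusted p = 4.7e-05), the other direction from AN4372, and AN4371 on its other side had 0.39 ± 0.18 (adjusted p = 0.085). Beside pelA, AN0740 was higher (0.87 ± 0.17, adjusted p = 0.00041) and AN0742 lower (−0.43 ± 0.13, adjusted p = 0.0086). AN8328, beside AN8327, had 0.00 ± 0.20 (adjusted p = 0.99), and AN11074 and AN3391, beside AN8327 and pmeA, had means of at most 0.139 FPKM in A773.

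Mycelium can hold conidiophores and spores, and 7 marker genes of these cells (brlA, abaA, wetA, ivoB, rodA, dewA and yA) were at a mean of at least 1 FPKM in all 8 groups, so none was at 0 in a group. Their summed level ran from 230 to 266 FPKM over the A773 libraries at 8 h, against 1483 to 4129 at 2 h. In AbfA it was 1951 to 3753 FPKM at 8 h, against 1303 to 1627 at 2 h, in BglC 83.1 to 1507, against 132 to 2669, and in 1542 589 to 791, against 805 to 1706. In A773 the largest part of the sum at each time was rodA, with means of 168 FPKM at 8 h and 1476 at 2 h. Between the times in A773 limma did not call rodA (−2.77 ± 1.15, adjusted p = 0.053). By limma, of the 7 at 8 h against 2 h, 2 were lower in A773 (16.8% of all genes lower), 3 in BglC (10.6%) and none in AbfA or 1542, with none higher in any strain. Against A773 at 8 h, 5 were higher in AbfA (11.3% of all genes higher), 1 in BglC (7.09%) and 1 in 1542 (5.42%), and at 2 h 1 was lower in AbfA (13.5% of all genes lower), 1 in BglC (15.7%) and 3 in 1542 (16.1%). ivoB, a gene of conidiophore pigmentation, averaged 307 FPKM in AbfA, 19.7 in BglC, 245 in 1542 and 3.84 in A773 at 8 h, and 483, 96.6, 306 and 743 FPKM at 2 h, so A773 was lowest at 8 h and highest at 2 h. The means of brlA, rodA and yA had A773 in the same places, and those of abaA, wetA and dewA did not. The part of these cells in the levels of the 4 genes was not tested.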

How the data were processed

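The authors deposited 1 table of FPKM values with a column for each of 24 libraries (TruSeq Stranded mRNA kit, per the labels' protocols) and 10631 genes. DESeq2, FastQC, HTSeq 0.6.0, bcl2fastq 1.8.4 and SAMtools 0.1.18 stand in the submitters' processing notes, without a stated step for each. The aligner, genome build, gene lengths and use of the strand were not given in the sources used here, so reads of overlapping or near-identical genes may not be separated. Whole reads were recovered from the steps of the FPKM values for 10631 of 10631 genes (100.0%, within 0.02 reads). Lengths of pmeA, pelA, AN8327 and AN4372 found this way were 978, 981, 1143 and 1095 bases, all multiples of 3. No sequence was given for these genes, and none is printed.

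All comparisons came from R 4.3.3 and limma 3.58.1. Values of log2(FPKM + 1) were fitted for 9201 genes with at least 1 FPKM in at least 3 libraries, by 1 model of 8 group means over 24 libraries with a trended prior. A call is a Benjamini-Hochberg adjusted p under 0.05 over all genes tested, two-sided. The fit was tested on simulated data. The 4 genes and the lists were chosen with earlier results of these data known. Named are the 4 genes, listed genes called with a log2 difference of at least 1, and the 3 most similar profiles for each of the 4. The pectin list was to add genes by protein similarity and by product name, which gave 0 more, since no proteins or products were given. Gene symbols came from a RefSeq table of ASM1142v1. Alternatives were a pseudocount of 0.1, no filter, median-of-ratios scaling, limma voom on recovered reads with trimmed-mean scaling, only the 6 libraries compared, a replicate block and each library left out. Same-numbered libraries of the 2 times deviated together in BglC (correlations 0.589, 0.154 and 0.327) and in no other comparison at all 3 numbers, so a block within BglC was added after seeing the data.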

Additional observations from a re-analysis of the deposited data

Results flagged for a closer look

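Some differences had opposite directions in 2 settings, with no overlap of the 3 and 3 libraries in either. The difference between the 2 settings was not tested, since the genes were chosen with their values known. In single comparisons 34% to 57.4% of all genes tested did not overlap. The share of all genes with opposite directions in 2 settings was not counted, so nothing is read from these cases. The pairs set against A773 use the same A773 libraries and the same group means as the differences between the times given above, so they are not separate observations. AN8327 was higher than in A773 at 8 h and lower at 2 h in AbfA (0.59 and −1.04, log2), in BglC (0.44 and −1.03) and in 1542 (1.06 and −0.70). pmeA was lower in 1542 than in A773 at 8 h (−0.91) and higher at 2 h (0.92). AN4372 was lower at 8 h than at 2 h in 1542 (−0.74) and higher in A773 (1.34).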

How the results depend on the processing

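The 10 counts of called genes are over the pectin list without the 4 chosen genes. With only the 6 libraries in the fit, AbfA against A773 at 2 h gave 1 in place of 2, and 1542 against A773 at 2 h gave 3 in place of 4. BglC against A773 gave 0 in place of 1 at 2 h and 1 in place of 0 at 8 h, and BglC between the times gave 1 in place of 2. BglC at 2 h gave 2 in place of 1 with a pseudocount of 0.1 and with median-of-ratios scaling. Without a filter, BglC at 8 h gave 1 in place of 0, and BglC between the times 3 in place of 2. AbfA between the times gave 1 in place of 0 without a filter, or 2 with median-of-ratios scaling. The causes were not tested. Leaving out each library in turn gave 2 to 3 in AbfA at 2 h, 2 in each case at 8 h, 0 to 2 in BglC at 2 h, 0 to 1 at 8 h, 1 to 5 in 1542 at 2 h and 1 in each case at 8 h. Between the times it gave 0 to 2 in AbfA, 1 to 3 in BglC, 0 to 2 in 1542 and 2 to 4 in A773. The replicate block changed none of the 10 counts (4 calls in 1542 against A773 at 2 h, 2 between the times in BglC), and the block within BglC also gave 2. Median-of-ratios scaling moved the median of all genes by −0.133 between the times in A773 and by 0.142 in BglC against A773 at 8 h. Of 363 values of the 30 differences of pmeA, AN8327 and AN4372 under alternatives, 345 stayed within 1 SD between replicates. That count includes settings that cannot change a difference of group means: no filter, only the 6 libraries and the replicate blocks. The 18 farther ones were mostly of AN8327 with a pseudocount of 0.1 or voom. They included pmeA between the times in A773, at 4.08 and 4.03 under these 2 settings, beside 3.62. A single value had the other sign (0.07 for pmeA in AbfA at 2 h, without A773 replicate 1). The 2 differences of AN2569 named by rule kept their call in all 24 alternatives. Depth limits pelA throughout and AN8327 in A773 at 8 h.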
